A study of Mus musculus with 24 samples.

Results

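Mos and its partners form the pathway that holds the mouse egg in the second meiotic metaphase until a sperm arrives. It was followed here through 8 listed genes: Mos, Map2k1, Map2k2, Mapk3, Rps6ka1, Rps6ka2, Rps6ka3 and Fbxo43. They were found by gene symbol among 19532 genes. Of the 8 genes, 5 had probes, 8 probes out of 41174 in all, and Mapk3, Rps6ka1 and Rps6ka2 were not analysed here.

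The cells were single B6D2F1 mouse cells, 1 per array on 24 arrays. The 0 h group was 3 uninjected metaphase II oocytes. The other 6 groups were 1-cell embryos made by intracytoplasmic sperm injection, in which a sperm is placed inside the oocyte. There were 3 embryos each for the times 2 h, 6 h and 8 h after injection, and 4 each for 4 h, 10 h and 12 h. The sperm came from B6D2F1 males 8 to 12 weeks old, and the labels name no transgene or drug. The series calls the arrays biological replicates, but no label ties a cell to a female, and p-values therefore speak only of how these cells vary. Messenger RNA of each cell was caught on oligo-dT beads and amplified by PCR, so that less mRNA and a shorter poly(A) tail cannot be told apart. Values are log2 intensities recovered from deposited scores, running from 5.69 to 15.86, and the most common value, 6.83, was taken as background. Per the labels, cDNA of the cell carried digoxigenin and that of a reference carried biotin, yet their label field reads biotin. Which of both the deposited values measure was not stated, and they are taken here as the cell's. A probe counted as bright when its value was over 7.83.

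Mos is a kinase made from stored maternal mRNA as the oocyte matures. It phosphorylates Map2k1 (MEK1), which activates the mitogen-activated kinases and through them the ribosomal S6 kinases of the Rps6ka family, and this chain is known as cytostatic factor activity. Fbxo43, also called Emi2, inhibits the anaphase-promoting complex directly. The calcium signal brought by the sperm leads to the destruction of the Emi2 protein, and meiosis then ends. The arrays measured mRNA, not protein or kinase activity.

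Mos mRNA was lower in every embryo than in every oocyte, which also held for the brightest probes of Smc3, Atf6b and Cdc26 described below. The share of all probes separated in this way was not counted. Nor was it counted for the single times and other genes below, where cells are said to lie outside a range. Mos was the only one of the 5 genes whose change passed the test in any comparison. Mos had only the probe A_52_P42332, so no other probe of the gene could be set beside it. Its mean went from 15.20 ± 0.15 (SD, n = 3) at 0 h to 9.54 ± 1.69 (SD, n = 4) at 12 h, a 50.6-fold difference. That fold was 30.3 without 12 h replicate b and 77.2 without 12 h replicate d. The genes for the MAP kinase kinases, for the S6 kinase and for Emi2 had mean 12 h changes between -0.75 and 0.84 on their bright probes. None of these 4 changes passed the test.

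The 3 oocytes held Mos at 15.11, 15.38 and 15.12. At 2 h the embryos read 14.90, 15.00 and 14.49. At 4 h the 4 values were 13.03, 12.74, 13.50 and 13.33. These 3 groups did not overlap with each other, and the cells of each lay close together.

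At 6 h the embryos read 13.07, 13.53 and 13.02, inside or next to the range at 4 h. At 8 h they read 11.15, 12.45 and 8.72. The 8 h cells were all below the 6 h cells, and they spread over a far wider range. At 10 h the values were 11.04, 10.03, 11.81 and 12.71, and at 12 h they were 10.10, 7.32, 9.38 and 11.36. The ranges at 8 h and 10 h overlapped, as did those at 10 h and 12 h. One 12 h embryo, replicate b, was below the bright mark, while the other 23 cells were above it.

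The SD between cells was 0.15 in oocytes, 0.27 in 2 h embryos, 0.34 in 4 h embryos and 0.28 in 6 h embryos. It was 1.89 for 8 h, 1.14 for 10 h and 1.69 for 12 h. The median SD over all probes was 0.25 log2 units in oocytes. It lay between 0.375 and 0.457 in the embryo groups, with no such step after 6 h. That median also covers probes near background. Among the genes most like Mos, described below, the SD rose from 6 h to 8 h for Smc3 (0.97 to 1.31), Slmap (0.96 to 1.04) and Clstn1 (0.81 to 1.42). The SD fell for Atf6b (1.25 to 0.58) and Smoc2 (0.76 to 0.49). Whether the wide late spread is particular to Mos was not tested. All 10 embryos of 2 h to 6 h, with a median of 13.42, lay above all 11 embryos of 8 h to 12 h, with a median of 11.04. This division of the times was made after the values were seen and has no test.

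**Figure D1:**
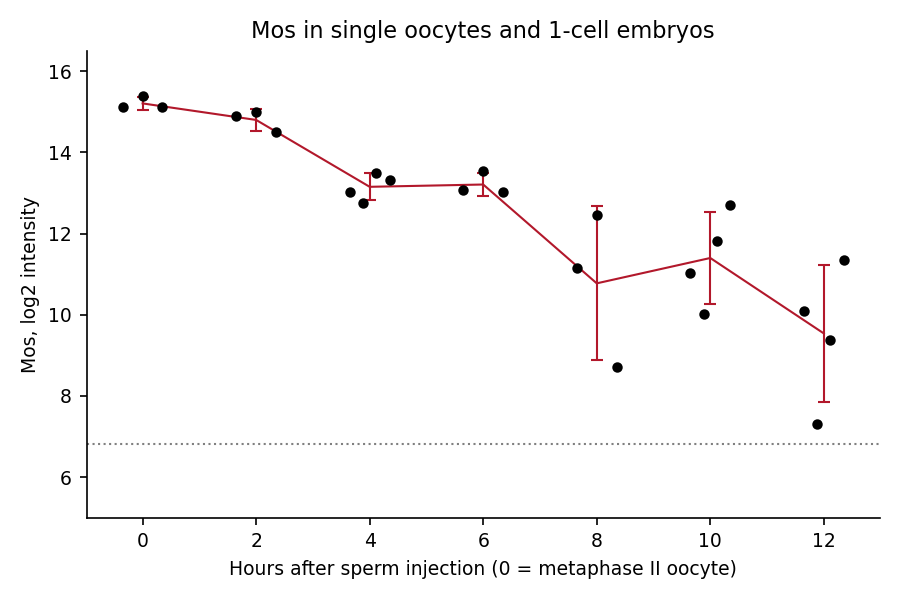
Log2 intensity of the Mos probe (y axis) against hours after sperm injection (x axis). Points are single cells, the line joins group means with SD bars (n = 3 or 4), and the dotted line is the background at 6.83. Every embryo lies below the lowest oocyte at 15.11, and the points spread out from 8 h on.

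Against 0 h, the limma fit over all probes gave Mos log2 changes of -0.41 at 2 h (SE 0.83, adjusted p = 0.952), -2.05 at 4 h (SE 0.77, adjusted p = 0.406) and -1.99 at 6 h (SE 0.83, adjusted p = 0.51). None of these passed the threshold of 0.05, although the 4 h and 6 h intervals, -3.65 to -0.44 and -3.71 to -0.28, lay below 0. The fit uses 1 spread for all times, so its SE at early times is larger than the early cells' own SD would give. Its SE at 8 h and 12 h is smaller than those cells' own SDs, 1.89 and 1.69, would give.

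Mos fell at 8 h, 10 h and 12 h, with log2 changes of -4.43 (SE 0.83, adjusted p = 0.0181), -3.80 (SE 0.77, adjusted p = 0.0248) and -5.66 (SE 0.77, adjusted p = 0.00058) in that order. The 8 h geometric mean was 4.64% of the oocyte geometric mean, the 10 h one 7.15% and the 12 h one 1.98%. These shares come from the differences of log2 means. Without 8 h replicate c the 8 h change was -5.27, and without 8 h replicate d it was -3.40. The direction held in 3 of 3, 4 of 4 and 4 of 4 embryos. The 12 h call held without each cell in turn, but the 8 h and 10 h calls were lost when any 1 of the 3 oocytes was left out, with adjusted p-values of 0.0519 to 0.0729 at 8 h and 0.085 to 0.104 at 10 h. The 10 h call was also lost without 10 h replicate a, b or c, at 0.0584 to 0.0845, and with the deposited scores, at 0.109. The 8 h call was also lost with only the 0 h and 8 h cells in the fit, at 0.104.

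These counts stood against a low background. Of all 41174 probes, the share called in either direction was 0.102% in the 2 h comparison, 0.0777% in the 4 h comparison and 0.0534% in the 6 h comparison. It was 0.695% for 8 h, 0.444% for 10 h and 0.998% for 12 h. Of the 8 member probes, 0 were called at 2 h, 4 h and 6 h, and 1, the Mos probe, at 8 h, 10 h and 12 h. At an unadjusted p under 0.05, 1, 1, 1, 3, 1 and 2 member probes passed from 2 h to 12 h, where 8.35% to 12.7% of all probes did. Counts out of 8 this small do not set the members apart from all probes. The 3 at 8 h, where 12.7% of all probes passed, were Mos and 2 Rps6ka3 probes close to background. Those 2 probes changed in opposite directions, by -1.20 and 0.74. The Mos change at 12 h was the third lowest of all 41174 probes. Mos started at 15.20, and probes that start near the background of 6.83 cannot fall as far.

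An exact two-sided permutation test of the Mos values gave p = 0.1 at 2 h, 6 h and 8 h and p = 0.0571 at 4 h, 10 h and 12 h, which are the smallest values these group sizes allow. With all 21 embryos against the 3 oocytes the exact permutation p was 0.000988, again the smallest possible, with every embryo lower. Any probe with every embryo below every oocyte gives this same value. In limma the mean of the 6 embryo groups was lower by a log2 change of -3.06 (SE 0.63, adjusted p = 0.021), where 0.765% of probes were called. That call was lost without 0 h replicate a, c or d, at adjusted p-values of 0.105 to 0.131, and with the deposited scores, at 0.082.

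The embryos alone also showed the decline. Over 2 h to 12 h the Mos slope was -0.48 log2 units per hour (SE 0.07, adjusted p = 0.00217 in limma), the third lowest slope of 41174 probes, and 0.393% of probes were called. Per hour this left 71.9% of the value of the hour before. The slope rank, too, sets Mos beside probes near background, which have little room to fall. The moderated F-test over the 7 times gave F = 14.59 (adjusted p = 0.00299), and 0.894% of probes passed it.

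No single step between neighbouring times passed the test for Mos. The changes were -1.64 from 2 h to 4 h (adjusted p = 0.49), 0.05 from 4 h to 6 h (0.994), -2.43 from 6 h to 8 h (0.396), 0.62 from 8 h to 10 h (0.943) and -1.86 from 10 h to 12 h (0.48). For these 5 steps the shares of all probes called were 0.0583%, 0.0437%, 0.0291%, 0.0923% and 0.034%. None of the 8 member probes was called in any of them, and at an unadjusted p under 0.05 there were 3, 1, 1, 1 and 1 members, where 7.5% to 9.96% of all probes passed.

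Map2k1 encodes MEK1, the kinase that Mos phosphorylates. Its 1 probe, A_51_P241074, read 13.80, 13.61 and 13.42 in the oocytes, and the 21 embryos ran from 12.41 to 13.96 with a median of 13.24. Every group's range overlapped that of the oocytes, although 11 embryos lay below the lowest oocyte and 1 above the highest. The 12 h mean was 13.23 ± 0.37 (SD, n = 4), a change of -0.38 with a 95% interval of -1.06 to 0.31. Its group means stayed between 13.15 and 13.61 over the course, and the slope per hour was 0.01 (SE 0.03).

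Map2k2 encodes MEK2, the close relative of MEK1. Its probe A_51_P439626 read 9.11, 10.36 and 9.87 in oocytes, and the embryos ran from 9.55 to 12.60 with a median of 10.54. Of the 21 embryos, 14 were above every oocyte and 0 below every oocyte. All 3 embryos at 6 h and all 3 at 8 h were among those above. How common such counts were over all probes was not examined. The mean embryo change was 1.04 (SE 0.55, 95% interval -0.11 to 2.18, adjusted p = 0.586), and the value at each time also missed the threshold, the highest being 1.42 at 8 h (adjusted p = 0.434). Within the embryos the slope was -0.02 per hour (SE 0.05).

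Rps6ka3 encodes RSK2, an S6 kinase activated by the mitogen-activated kinases. Its probe A_52_P283628 read 10.34, 11.52 and 11.41 in oocytes and 8.55, 8.92 and 9.54 at 2 h. At 4 h it read 11.98, 12.07, 10.20 and 10.77. The 2 h embryos were below every oocyte and below every 4 h embryo, while the 4 h and 0 h ranges overlapped. It was not counted how many of all probes had 2 h embryos set apart like this. The change at 2 h was -2.09 (SE 0.87, 95% interval -3.89 to -0.28, adjusted p = 0.439) and from 2 h to 4 h 2.25 (SE 0.81, adjusted p = 0.334), so neither passed.

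Later Rps6ka3 values on this probe scattered widely, from 8.31 to 12.78 over the embryos of 6 h to 12 h. The mean at 8 h was 9.36 ± 1.23 (SD, n = 3), a change of -1.73 (adjusted p = 0.422), and at 12 h it was 10.34 ± 1.38 (SD, n = 4), a change of -0.75 (95% interval -2.44 to 0.94). The other Rps6ka3 probes, A_51_P280506 and A_52_P75975, had means of 7.25 and 7.05 over the 24 arrays, close to background, and each was over the bright mark on 2 of 24 arrays. Their changes at 2 h were -0.39 and 0.44, so the low 2 h values rest on 1 probe.

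Fbxo43 encodes Emi2, the inhibitor of the anaphase-promoting complex. Its bright probe, A_52_P260613, read 14.11, 14.21 and 13.99 in oocytes, 13.98, 13.39 and 13.98 at 2 h, and 13.89, 14.72, 15.02 and 14.34 at 4 h. At 12 h it read 12.93, 13.93, 13.16 and 13.78. The 3 embryos at 2 h and the 4 at 12 h were below every oocyte, and 3 of the 4 at 4 h were above every oocyte. How many of all probes had such groups was not counted.

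The Fbxo43 change was 0.39 at 4 h (95% interval -0.19 to 0.97, adjusted p = 0.746) and -0.66 at 12 h (95% interval -1.24 to -0.07, adjusted p = 0.336), and neither passed. The steps into and out of 4 h were 0.71 (adjusted p = 0.391) and -0.69 (adjusted p = 0.447). The slope within embryos was -0.06 per hour (SE 0.03, adjusted p = 0.439). The other probe, A_52_P591353, had a mean of 6.69, at background, with 2 of 24 arrays over the bright mark, and adds no level of its own.

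**Figure D2:**
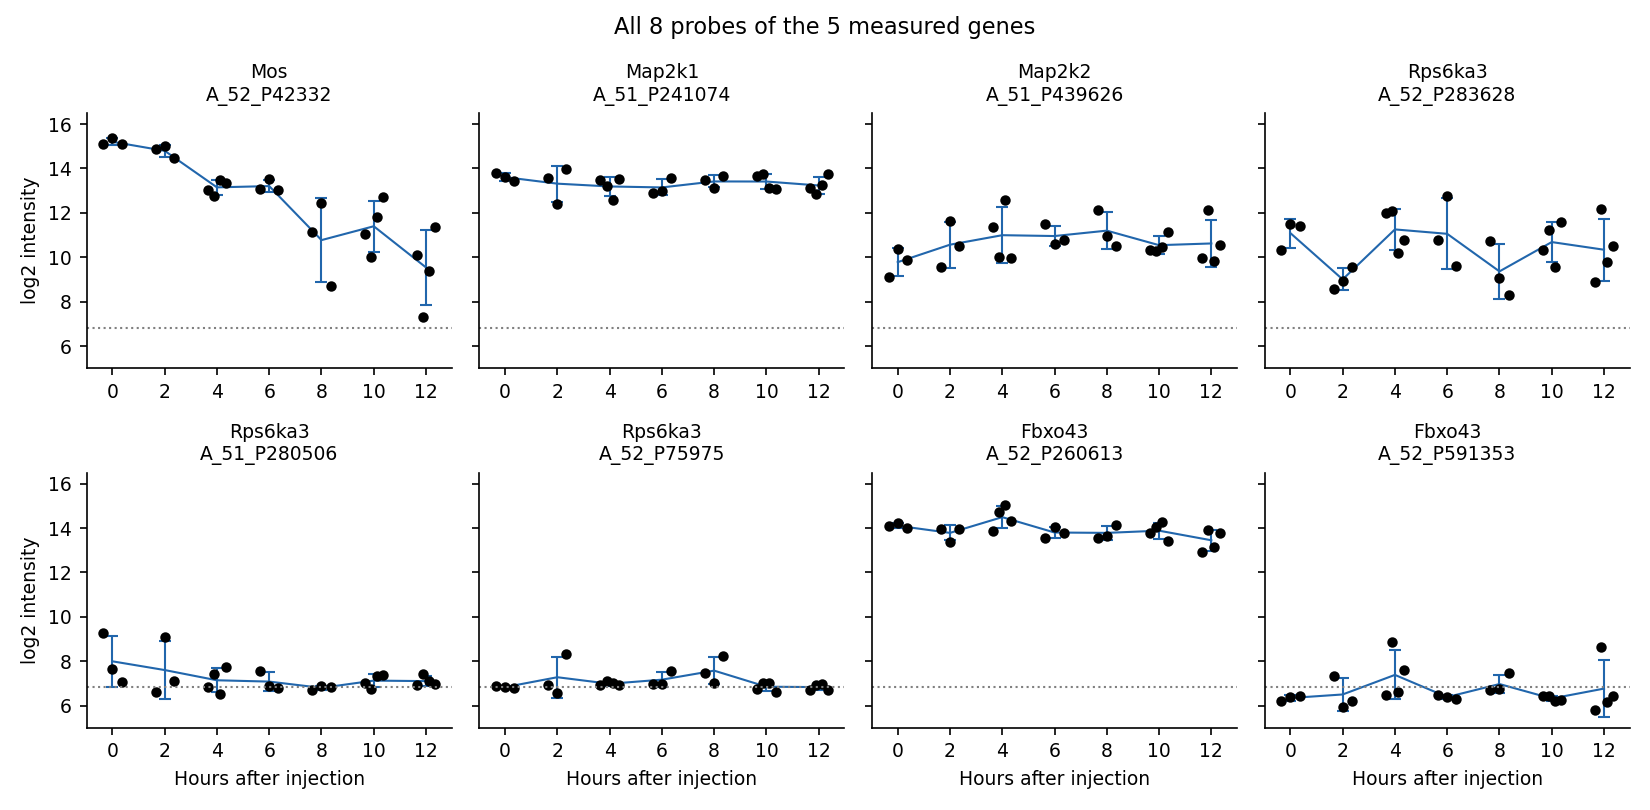
Log2 intensity (y axis) against hours after sperm injection (x axis) for the 8 probes of the 5 measured genes, 1 panel a probe. Points are single cells, lines join group means with SD bars, and the dotted line is background at 6.83. Only the decline of Mos passed the test, and the second Fbxo43 probe and 2 of the 3 Rps6ka3 probes lie at or near background.

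To set Mos beside its partners within each cell, the difference between its log2 value and that of another member was taken. Differences between probes carry each probe's own response, so only their change is given. From oocytes to the 21 embryos, Mos minus Map2k2 changed by -4.19, Mos minus Fbxo43 by -2.94, Mos minus Map2k1 by -2.85 and Mos minus Rps6ka3 by -2.43. Exact two-sided permutation tests, added after the values were seen and adjusted over these 4 differences, gave p = 0.0119 for Map2k2, 0.0138 for Fbxo43, 0.0211 for Map2k1 and 0.0889 for Rps6ka3. The raw exact p-values were 0.00296, 0.00692, 0.0158 and 0.0889 in that order. The differences were below those of every oocyte in 20, 20, 19 and 18 of the 21 embryos, so Mos fell relative to 3 of the 4 partners and the fourth missed the threshold. All 4 differences hold the same Mos values, already seen to be lower in every embryo. These tests therefore add no separate support for the fall of Mos.

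**Figure D3:**
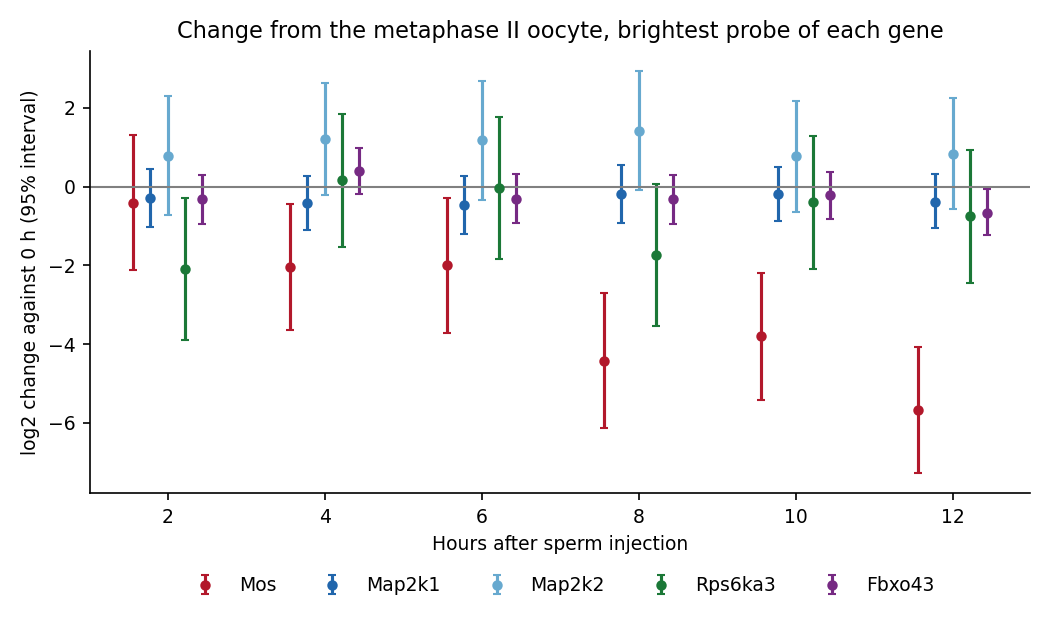
Log2 change against 0 h (y axis) at each time after injection (x axis) for the brightest probe of each measured gene, with 95% limma intervals. Mos reaches -5.66 at 12 h, and the other 4 genes lie between -2.09 and 1.42 at all times.

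Among the embryos, the correlations of Mos with the other members were weak. Over the 21 embryos, which share their arrays, Pearson's r of Mos was -0.11 with Map2k1, -0.01 with Map2k2, -0.08 with Rps6ka3 and 0.21 with Fbxo43. On deviations from the group means the value with Fbxo43 was -0.32, of the opposite sign. The strongest of the 10 pairs was Map2k1 with Map2k2, at -0.55. These are descriptions without a test.

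By the rule of highest correlation over the 24 arrays, the 5 genes most like Mos were Smc3 (r = 0.892), Slmap (0.885), Atf6b (0.873), Smoc2 (0.861) and Clstn1 (0.84). Smc3, a cohesin subunit, went from 13.42 ± 0.21 (SD, n = 3) at 0 h to 8.14 ± 0.74 (SD, n = 4) at 12 h, and Atf6b, a stress-responsive transcription factor held in the endoplasmic reticulum, from 13.27 ± 0.29 to 7.74 ± 0.34. At 12 h Mos had an SD of 1.69, while the SDs of these 5 genes ran from 0.34 for Atf6b to 1.36 for Slmap. Slmap went from 12.52 to 8.01, Smoc2 from 14.16 to 11.59 and Clstn1 from 12.70 to 8.42. For Fbxo43 the closest genes reached only 0.743 (Rrnad1), 0.742 (Tssk6), 0.739 (Zfp280d), 0.721 (Tmcc3) and 0.712 (Insl6).

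The wider arrest and release machinery was followed as 6 lists, with the brightest probe standing for each gene, and 97 of 111 listed genes were measured. Map2k1, Map2k2 and Rps6ka3, reported above, are counted again in the MAP kinase cascade list. At 12 h, 2 list genes were lower and 0 higher than in oocytes, against 0.932% and 0.333% of 19532 genes called lower and higher. In all embryos 1 was lower and 0 higher, against 0.727% and 0.159%. Counts this small do not set the lists apart from all genes.

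In the MAP kinase cascade list, which holds the Raf kinases, the kinases below them and their scaffolds, 12 of 19 genes were measured, 1 was called lower at 12 h and 0 higher, and the median change was -0.56 against 0.08 over all genes. The gene called was Mknk1, a kinase that phosphorylates the cap-binding factor eIF4E. Its brightest probe went from 14.06 ± 0.31 (SD, n = 3) through 12.07 ± 0.53 (SD, n = 3) at 6 h to 9.53 ± 2.56 (SD, n = 4) at 12 h, which is a difference of -4.53 (SE 0.93, adjusted p = 0.0176). All 4 embryos at 12 h were below every oocyte on that probe, A_52_P668196. The mean changes of the other bright probes, A_52_P246082 and A_52_P246089, were -3.10 and -5.46. Within single cells the probes disagreed. In the order just named, 12 h replicate b read 7.39, 12.86 and 6.54, and replicate a read 12.97, 7.88 and 8.09. On A_52_P246082 replicate b lay inside the oocyte range of 12.62 to 13.05. The call was lost without any 1 of the 3 oocytes and without 12 h replicate b or c, at adjusted p-values of 0.0522 to 0.0882, and with only the 0 h and 12 h cells in the fit, at 0.182.

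The anaphase-promoting complex is the ubiquitin ligase that Emi2 inhibits. Of its 20 listed genes all 20 were measured, 1 was called lower at 12 h and 0 higher, and the median change was -0.35. The gene called was Cdc26, a small subunit of the complex, which went from 15.26 ± 0.09 (SD, n = 3) to 12.73 ± 0.79 (SD, n = 4), a change of -2.53 (SE 0.45, adjusted p = 0.00611). All 21 embryos were below every oocyte on its probe A_52_P50959, and the mean embryo change was -1.62 (adjusted p = 0.0395). With the mean of all its probes, 4 of which lay mostly near background, the 12 h change was -0.91 (adjusted p = 0.147), and the call over all embryos was lost too. The call over all embryos was also lost without any 1 of the oocytes, at 0.166 to 0.188, and, at 0.0503 to 0.0562, without 2 h replicate b or d, 4 h replicate a, 8 h replicate a or 10 h replicate a. It was lost with the deposited scores (0.0585), without the mean-variance trend (0.0507) and without the 4 arrays with the fewest distinct values (0.0809) as well.

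The other 4 lists had 0 genes called in either direction by limma, at 12 h or over all embryos. They were the MAP kinase phosphatases and inhibitors (13 of 14 measured, median 12 h change 0.11), the factors of Emi2 turnover and calcium release (25 of 26, -0.10), the maturation-promoting factor (14 of 15, 0.07) and the translational regulators of Mos mRNA (13 of 17, -0.03). At an unadjusted p under 0.05 they held 2, 4, 2 and 0 genes at 12 h, where 13.5% of all genes passed.

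**Figure D4:**
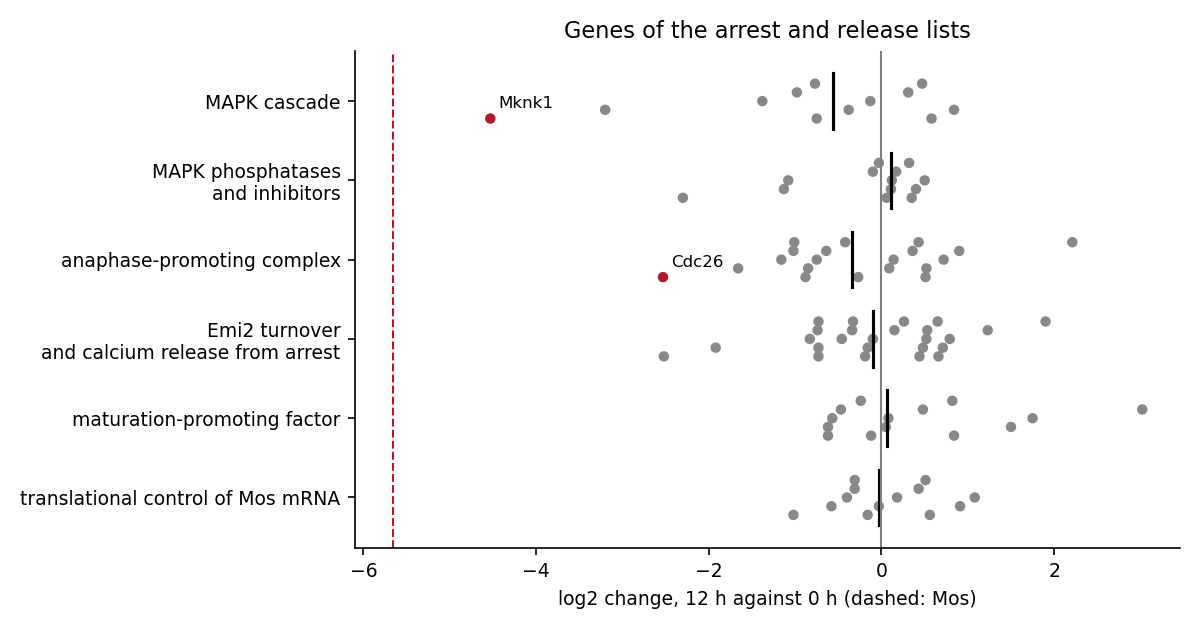
Log2 change at 12 h against 0 h (x axis) for each measured gene of the 6 lists (rows), 1 point a gene. Black bars are list medians, red points are the 2 genes that passed the test, and the red dashed line is Mos at -5.66. No list gene lies as low as Mos, but genes that start near background have less room to fall.

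Marker genes of oocytes, cumulus cells and sperm were looked at in each group. All 12 oocyte markers, Gdf9 and Zp3 among them, were bright at every time. Of 10 measured cumulus cell markers 1 to 3 were bright, and Has2, Ptgs2 and Tnfaip6, which define expanded cumulus cells, had means at or below 7.43. Among the bright ones was Amh, at 12.46 in oocytes, and Ptx3 had a mean of 7.75 in oocytes and 8.17 in embryos. The summed level of the cumulus list, as a mean over its genes, was 7.61 to 7.74 in oocytes and 7.63 to 8.23 in embryos. Of 10 sperm markers 4 were bright in the uninjected oocytes, namely Gapdhs (11.8), Prm1 (11.38), Tnp2 (9.34) and Prm2 (8.25). Bright sperm markers were thus not confined to injected cells. In embryos 4 to 7 were bright, and the mean level of the list was 8.29 to 8.53 in oocytes and 8.62 to 9.53 in embryos. Oocyte and embryo arrays also differed in grain, with 7580 to 7856 distinct values in oocytes and 5309 to 7531 in embryos, and in likeness, with pairwise r of 0.932 to 0.937 among oocytes and 0.821 to 0.913 within embryo groups. The part of these differences in the Mos result was not tested. Without the 4 arrays with the fewest distinct values, which were 2 h, 4 h and 8 h embryos, the Mos slope within embryos was -0.46 per hour (adjusted p = 0.0057) and the 8 h change -4.05 (adjusted p = 0.0728).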

How the data were processed

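The 24 arrays are single cells, grouped by the time in their titles. The deposited values are scores on a scale the authors did not state; limma is named without a version, per the submitters' processing notes, with background correction and scanner not given in the sources used here. Medians of the 24 columns were near-identical, 1.16 to 1.18. Tied probes, placed midway between levels by quantile normalization, gave the scale: 100 of 101 such midpoints lay within 0.02 of a double natural log of intensity. A shift and a factor of intensity stay unknown, and no background was subtracted, so changes near background are understated. Tests used these log2 intensities in place of the deposited scores, which are an alternative.

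Of 41174 probes, 32664 had 1 gene symbol in the platform annotation, 45 several and 8465 none. RefSeq identifiers matched 32524 probes and changed 0 symbols. All probes entered 1 fit of 7 group means (limma 3.58.1, R 4.3.3, lmFit, eBayes with trend), two-sided, with Benjamini-Hochberg adjustment over all probes in a comparison and a threshold of 0.05. The steps were tested on simulated data. Exact permutation tests used scipy 1.17.1. Members and gene lists were chosen with earlier results of these data known. Named from the lists was every gene called at 12 h or over all embryos, up to 6 a list, and the 5 genes most correlated with Mos and with Fbxo43. The number of arrays limits the precision.

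Alternatives were the scores, 1 probe or the mean a gene, no trend, array weights, the upper 60% of probes, bright probes, a replicate block, only the compared groups and each cell left out. Leaving out the 4 arrays with the fewest distinct values was chosen after seeing the data.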

Additional observations from a re-analysis of the deposited data

Results flagged for a closer look

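The Mos probe differed between embryo times by the test of its slope, -0.48 log2 units per hour over the 21 embryos (SE 0.07, adjusted p = 0.00217 in limma). The embryos at 2 h ran from 14.49 to 15.00 and those at 12 h from 7.32 to 11.36. In 24 groups of 4 cells tested over the member probes, 0 held a cell set apart from the others.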

How the results depend on the processing

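The 12 h fall of Mos kept its call in 17 of 17 alternatives, with adjusted p-values from 2.98e-05 to 0.0363, and the slope in 30 of 30. The F-test called 1 member probe in each of 33. The 1586 values and calls of the other members under the alternatives all stayed uncalled. The Mos call was lost, and the count of member probes lower went from 1 to 0, in these settings. With the deposited scores the Mos change was -1.30 score units at 10 h (adjusted p = 0.109) and -1.07 over all embryos (0.082). With only the groups compared it was -4.43 at 8 h (0.104). Without the 4 arrays with the fewest distinct values, a setting chosen after seeing the data, it was -4.05 at 8 h (0.0728). Leaving out 1 cell gave Mos -5.27 to -3.40 at 8 h, -4.24 to -3.35 at 10 h, -6.27 to -4.92 at 12 h and -3.20 to -2.89 over all embryos, with the count between 0 and 1. The cause was not tested, except that leaving out a cell or a group leaves fewer samples.

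Cells with the same replicate letter did not deviate together (mean r 0.021 over 62 pairs, -0.111 to 0.178, against -0.007 over 184 pairs of different letters). With the letter as a replicate block, Mos was -3.55 at 10 h (adjusted p = 0.054) and -2.78 over all embryos (0.0505), both counts being 0, and it lost no other Mos call. It also lost the all-embryo call of Cdc26 (0.0757). Over the lists, array weights gave 4 genes lower and 1 higher at 12 h, and 6 lower and 1 higher over all embryos. The mean over a gene's probes, the upper 60% of probes, bright probes, the block, leaving out 12 h replicate a and leaving out the coarse arrays each gave 1 higher at 12 h. Of the genes like Mos, Smc3, Atf6b and Clstn1 kept their 12 h call in 17 of 17, and Slmap and Smoc2 lost it with only the groups compared.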
